A study of Drosophila melanogaster with 6 samples.

Results

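The Turandot genes encode small secreted peptides of *Drosophila* that the fat body releases into the hemolymph when the animal is under stress. The rule named 8 of them: TotA, TotB, TotC, TotE, TotF, TotM, TotX and TotZ. A gene was taken as measured where the array annotation gives its symbol, or a synonym of the same gene number, to a probe set, the group of oligonucleotides that reads 1 transcript. By that rule 5 members, TotB, TotC, TotE, TotF and TotZ, were measured, each by 1 probe set, out of 11982 genes in all. TotA, TotM and TotX had no named probe set and were not analysed here.

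The samples were fat bodies of *Drosophila melanogaster* larvae of 2 genotypes. The *delg* mutant was delg613/Df(3R)ro80b and the control was +/Df(3R)ro80b, with 3 biological samples each. Both genotypes carried 1 copy of the deficiency Df(3R)ro80b, which uncovers *delg*, so that the control had 1 wild type copy of the gene and the mutant had only the allele delg613, a stop codon allele. The labels describe each sample as 60 pooled fat bodies from larvae of 6 days, and use the word mutant for the control samples too. In its other experiments on mid-third instar larvae the study took mutants at 6 days and controls at a younger age. The age of the controls here is therefore uncertain, and any part of age or stage in the differences was not tested. The study's own text calls the larvae late L3 or wandering, and no source used here states their sex or any stress treatment. The comparison asks how the transcripts of the larval fat body differ when Delg, an ETS transcription factor, is missing.

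Turandot transcripts are known from adult flies and larvae, in which heat, infection, drying and ultraviolet light raise them in the fat body. TotA is the member studied most: its induction after infection needs the JAK/STAT pathway, in which Upd cytokines bind the receptor Dome and activate the transcription factor Stat92E, and also the Imd pathway with its factor Relish. The kinase Mekk1 is known as a further input. In the gene order of the RefSeq assembly Release 6 plus ISO1 MT, TotA, TotC, TotB and TotZ lie next to each other on chromosome arm 3R, with TotX near them on the same arm. TotF and TotE are neighbours on arm 2L, and TotM lies alone on that arm.

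Each sample was hybridised to 1 Affymetrix array, and values are MAS5 signals, a linear scale on which each array has a trimmed mean of 500.02. The signals of all probe sets tested ran from 0.12 to 89161, with array medians of 55.5, 64.0 and 64.8 in the mutant and 66.1, 62.4 and 75.5 in the control. Some libraries stood apart in marker genes. The 6 glue genes of the salivary gland (Sgs1, Sgs3, Sgs4, Sgs5, Sgs7 and Sgs8) had signals of 2.53 to 231 in control replicate 2, against 6936 to 78371 on the other 5 arrays, while the new-glue genes ng1, ng2 and ng3 were not low there, with 7064, 7884 and 9057. None of these 9 genes passed the test, and the 3 new-glue genes were lower in the mutant at an unadjusted p under 0.05. Digestive enzymes and other midgut markers (9 of 10 measured) summed to 49289 in mutant replicate 1, to 219 and 251 in mutant replicates 2 and 3, and to 1082 to 3384 in the controls. Of these midgut markers, Jon99Ci and Jon25Biii were below the array median on all 6 arrays. Hemocyte markers, all 10 measured, summed to 7634 to 11821 in the mutant and 5457 to 7428 in the control, and 2 of them, eater and Pxn, rose (adjusted p = 0.0340 and 0.0438 from limma). Of the other 8 none passed, 4 were higher at an unadjusted p under 0.05, and Ppn, PPO1 and PPO2 had log2 fold changes of -0.44, -0.79 and -0.69. Muscle markers (7 of 10 measured) summed to 2176 to 2427 in the mutant and 2386 to 3485 in the control. Of these 0 passed and 0 had a log2 fold change above 0. Mlc1 and Prm were lower at an unadjusted p of 0.00359 and 0.0408 from limma. Epidermis and trachea markers (5 of 10 measured) summed to 171 to 365 in the mutant and 157 to 320 in the control, and 0 passed. Over all genes 8.2% passed the test and 23% had an unadjusted p under 0.05 from limma, in either direction. Fat body markers (7 of 10 measured) summed to 234510 to 276310 in the mutant and 257270 to 328370 in the control, and 0 of them passed the test. Among them Fbp1, a receptor gene for storage proteins, had 1103 in control replicate 2 and 40320 to 65884 on the other 5 arrays, and FASN1 and Apoltp were lower in the mutant at an unadjusted p of 0.00835 and 0.0303. The probe set of *delg* (Ets97D) had signals of 71.7, 87.1 and 91.9 in the mutant and 135, 122 and 213 in the control (adjusted p = 0.267 from limma), which does not check the labels, since a stop codon need not remove the transcript.

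All 5 measured Turandot genes had low signals in both genotypes. Their 30 values ran from 2.98 to 66.6, and 1 of the 30 was above the median of its own array. That value, TotC in control replicate 1, exceeded its array median by a factor of 1.01. On their own arrays the values lay between percentile 4.56 and percentile 50.1 of the probe sets tested. Since the probe sets of different genes bind with different strength, these positions say how bright a spot was and do not rank the genes by transcript number.

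The deposited table holds no detection calls, so odorant and gustatory receptor genes, known mainly from sensory neurons, were used to describe the signal of genes with little or no transcript in this tissue. The 112 such genes had median signals of 15.2 to 16.3 in the mutant and 17.1 to 19.6 in the control. Their 95th percentile was 42.0, 50.1 and 42.5 in mutant replicates 1 to 3, against 48.4, 66.1 and 54.3 in control replicates 1 to 3. Of the 30 Turandot values 5 lay above the 95th percentile of their array. TotE and TotZ lay below it on all 6 arrays. TotB exceeded it on 1 array, TotC on 2 and TotF on 2. No member was above it on all arrays of either genotype. At these signals the arrays do not tell a low level of Turandot transcript from none, and in whole fat bodies fewer expressing cells and less RNA per cell cannot be told apart.

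**Figure D1:**
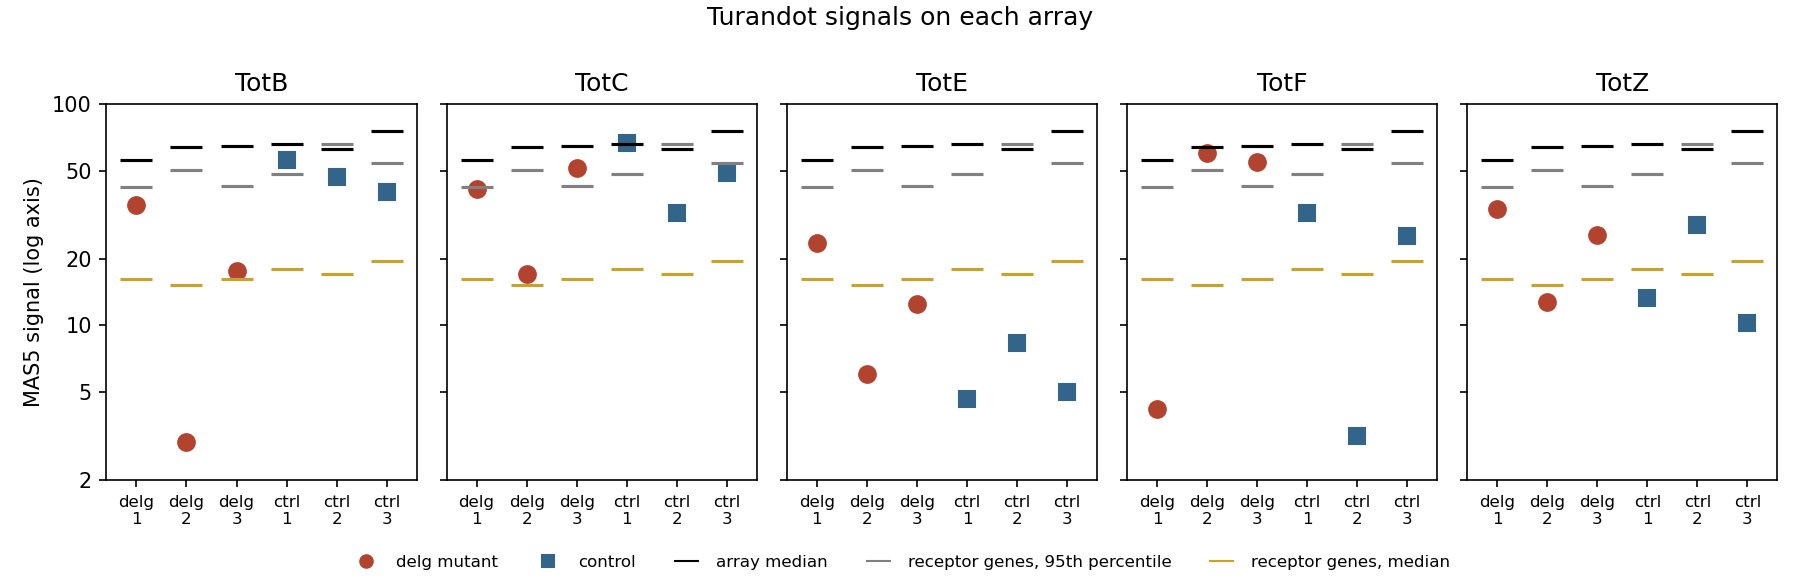
MAS5 signal (log axis) of the 5 measured Turandot genes on each of the 3 *delg* mutant arrays (circles) and 3 control arrays (squares). Black bars mark the array median, grey bars the 95th percentile and yellow bars the median of 112 odorant and gustatory receptor genes; 1 of the 30 Turandot values is above its array median.

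No Turandot gene passed the test between *delg* mutant and control. With limma and Benjamini-Hochberg adjustment over all 18769 probe sets, 0 of the 5 members rose and 0 fell at an adjusted p under 0.05, and 0 had an unadjusted p under 0.05. The equal-variance test named in the study's methods also called 0 of them. Over all genes, 8.2% were called (4.45% higher and 3.75% lower in the mutant), and 23% had an unadjusted p under 0.05. With every array shifted to the same median, 686 genes were higher and 287 lower, in place of 533 and 449, and the median over all genes moved to a log2 fold change of 0.06, in place of -0.09. The share depended on brightness: 0.958% of the 4177 genes with a mean signal below the median of the probe sets were called, against 12.1% of the 7805 brighter genes. All 5 members belonged to the dimmer genes, and none of the 112 receptor genes was called (4 had an unadjusted p under 0.05). The median log2 fold change of the 5 members was 0.50, and 3 of them were above 0, compared with a median of -0.09 over all genes.

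TotB, of the group on arm 3R, showed the widest separation of the genotypes. Its signals were 35.0, 2.98 and 17.7 in the mutant and 55.9, 46.9 and 40.0 in the control. All 3 mutant values were under all 3 control values, and the mutant samples differed more among themselves than the controls did, with mutant replicate 2 far below the others. The means were 18.6 ± 16.0 in the mutant and 47.6 ± 7.98 in the control (SD, n = 3 each). The log2 fold change was -1.94 (standard error 0.99, 95% interval -4.20 to 0.32, adjusted p = 0.340 from limma). An exact two-sided permutation test gave p = 0.1, the smallest that 3 samples against 3 allow. Of all genes, 15.6% had every mutant sample below every control sample, and 8.69% of the dimmer genes did. Without mutant replicate 2 the log2 fold change of TotB was -0.92 (adjusted p = 0.596).

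TotC, which lies between TotA and TotB, had signals of 41.5, 17.0 and 51.1 in the mutant and 66.6, 32.3 and 48.7 in the control. The genotypes overlapped, with the lowest sample again mutant replicate 2 and the highest control replicate 1, as for TotB. The log2 fold change was -0.51 (standard error 0.68, 95% interval -2.06 to 1.04, adjusted p = 0.765 from limma). Without mutant replicate 2 it was -0.03.

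TotZ, the last gene of the row on arm 3R, had signals of 33.6, 12.8 and 25.6 in the mutant and 13.3, 28.3 and 10.2 in the control. Mutant replicate 1 was highest, control replicate 2 came next, and the genotypes overlapped. The log2 fold change was 0.50 (standard error 0.81, 95% interval -1.35 to 2.36, adjusted p = 0.814 from limma).

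TotE, also called victoria, had signals of 23.5, 6.05 and 12.6 in the mutant and 4.66, 8.31 and 4.99 in the control. The highest sample was again mutant replicate 1, and mutant replicate 2 lay within the range of the controls. The log2 fold change was 1.07 (standard error 0.86, 95% interval -0.90 to 3.04, adjusted p = 0.582 from limma). Mutant replicate 1 is the sample with the high midgut markers, and the part of that tissue in the signals of TotE and TotZ was not tested. Without this sample the log2 fold changes were 0.59 for TotE and 0.21 for TotZ.

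TotF, the neighbour of TotE on arm 2L, varied most between samples of 1 genotype. Its signals were 4.19, 60.1 and 54.6 in the mutant and 32.1, 3.16 and 25.3 in the control. In each genotype 1 sample was far below the other two, mutant replicate 1 and control replicate 2. The highest of the 6 signals was 19.0 times the lowest, a ratio of 18.7 in TotB, 5.04 in TotE, 3.91 in TotC and 3.28 in TotZ. The log2 fold change of TotF was 0.81 (standard error 1.34, 95% interval -2.26 to 3.87, adjusted p = 0.821 from limma). It turned to -0.25 without control replicate 2, the sample with the low glue gene signals.

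**Figure D2:**
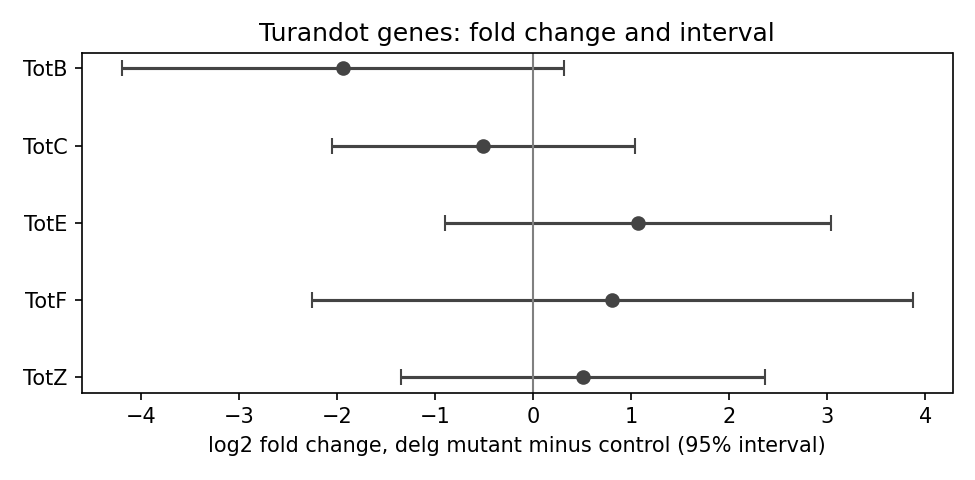
Log2 fold change of each measured Turandot gene, *delg* mutant minus control, with its 95% interval from limma (n = 3 arrays per genotype). Every interval includes 0, and TotB, with -4.20 to 0.32, lies furthest to the lower side.

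The width of these intervals sets what the arrays could show. The standard errors of the 5 members had a median of 0.86, similar in size to the 0.99 of the dimmer genes and the 1.06 of the receptor genes, against 0.32 in the brighter genes. For TotF the interval runs from a log2 fold change of -2.26 to one of 3.87. The misses of the threshold therefore do not show that the Turandot genes were equal in the 2 genotypes.

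The members did not all vary together. Over the 6 arrays the Pearson correlation of log2 signals ranged from -0.65 (TotF and TotZ) to 0.88 (TotE and TotZ) over the 10 pairs, and 6 pairs were above 0. TotB and TotC, side by side on arm 3R, had a correlation of 0.81, and TotE and TotF, side by side on arm 2L, one of -0.48. These values are over 6 arrays of low signals, in which the pairs share array and background. TotC had the highest mean log2 signal of the members, and the 5 brighter genes whose log2 signal followed it most closely were CG10466, jbug, MFS12, Sirt1 and CG13359, with correlations from 0.95 to 0.955. Correlations above 0.9 with TotC were found for 24 of the 7805 genes compared. The 5 were picked as the highest of these many correlations over 6 arrays, which were not tested, so they do not show a link to TotC. None of these 5 genes was called between the genotypes (adjusted p from 0.495 to 0.864 from limma).

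The genes next to the Turandot genes were read by position. KaiR1D, a glutamate receptor gene before TotA, had signals of 19.2, 21.7 and 10.8 in the mutant and 2.47, 2.91 and 9.91 in the control (adjusted p = 0.272 from limma). On the other side of this row, Ktl had 70.2, 52.2 and 93.4 in the mutant and 170, 65.8 and 274 in the control (adjusted p = 0.381 from limma). Neither was called, and KaiR1D was below its array median throughout. Beside TotX, Grik, a further glutamate receptor gene, had 6.11, 1.17 and 4.53 in the mutant and 6.90, 47.9 and 24.2 in the control, and CG31191 had 1.95, 46.2 and 19.4 in the mutant and 10.8, 49.3 and 15.4 in the control. Neither passed (adjusted p = 0.216 and 0.826 from limma), and both were below their array medians throughout. Beside TotF, the uncharacterised gene CG10481 had 2.63, 5.65 and 1.56 in the mutant and 30.1, 37.8 and 28.4 in the control (adjusted p = 0.0462 from limma). All 6 signals were under the 95th percentile of the receptor genes, so that no fold is given, and the call was lost on leaving out any one of the 6 samples (adjusted p up to 0.167). Beyond TotE, COX4, which encodes a subunit of cytochrome c oxidase, was bright, with 8404, 5848 and 6813 in the mutant and 7827, 20656 and 10145 in the control (adjusted p = 0.284 from limma). On one side of TotM, CG14022 had 61.1, 35.2 and 51.6 in the mutant and 28.7, 10.5 and 28.6 in the control (adjusted p = 0.406 from limma). On its other side, fusl, which encodes a membrane protein known from synapses, was bright and rose, with 8204, 8050 and 9643 in the mutant and 2991, 1032 and 2114 in the control. The log2 fold change of fusl was 2.20 (standard error 0.35, adjusted p = 0.0096 from limma), a call lost without mutant replicate 3 (adjusted p = 0.0629) and without the trend in limma (0.0922).

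The JAK/STAT pathway, through which TotA is known to be induced, showed no change past the test. Of its 13 genes 10 were measured, all but upd3, hop and Socs36E. Of those measured 0 rose and 0 fell, where 8.2% of all genes were called, so that with this few genes the count does not set the list apart. The median log2 fold change of the list was -0.05, against -0.09 over all genes. The ligand genes upd1 and upd2 also had low signals: upd1 had 7.29, 1.59 and 38.6 in the mutant and 17.7, 4.24 and 1.47 in the control, and upd2 had 6.91, 26.2 and 20.8 in the mutant and 55.1, 2.68 and 5.34 in the control. The receptor gene dome had 196, 224 and 257 in the mutant and 271, 208 and 229 in the control. Stat92E was bright, with 7341, 9908 and 8241 in the mutant and 11041, 4268 and 9677 in the control, the lowest in control replicate 2. The smallest p of the list belonged to et, a shortened receptor that dampens signalling through Dome, with 253, 317 and 264 in the mutant and 327, 498 and 394 in the control (log2 fold change -0.53, adjusted p = 0.310 from limma).

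Of the genes of the other inputs a few passed the test. The calls stand beside the 8.2% of all genes and the 12.1% of the brighter genes that were called. With lists this small, the number of calls alone does not set these pathways apart. Of 13 measured genes of the stress MAP kinase pathway (16 listed) 1 rose, Mekk1, with 946, 1016 and 818 in the mutant and 463, 420 and 369 in the control, a log2 fold change of 1.15 (adjusted p = 0.0144 from limma, standard error 0.20). Of 10 measured Imd pathway genes (11 listed) 1 rose, imd, the adaptor of that pathway, with 476, 585 and 615 in the mutant and 196, 150 and 135 in the control, a log2 fold change of 1.81 (adjusted p = 0.00616 from limma, standard error 0.26). Rel, which encodes Relish, had 2902, 3891 and 3193 in the mutant and 2463, 1516 and 1715 in the control, without overlap of the genotypes (log2 fold change 0.83, adjusted p = 0.0742 from limma). Over all genes 30.1% had no overlap of the genotypes, in either direction. As a list the Imd genes leaned upward, with 8 of 10 above 0 and a median log2 fold change of 0.66, against -0.09 over all genes. Before adjustment, limma gave p below 0.05 to 5 rises and 0 falls among these 10, and to 23% of all genes. Among the 7805 brighter genes 2435 had such a p. The summed signals of the Imd genes were 10650 to 11580 in the mutant and 6224 to 9068 in the control. The medians of the stress MAP kinase and Toll lists were 0.23 and 0.21. No list was tested as a set. Of 11 measured Toll pathway genes 2 rose, psh, a protease gene upstream of Toll, by 1.07 on the log2 scale (adjusted p = 0.0101 from limma) and cact, the gene of the inhibitor that Toll signalling removes, by 0.67 (adjusted p = 0.0462). Mekk1 no longer passed when any one of the mutant arrays or control replicate 3 was left out (adjusted p up to 0.0725), and imd no longer passed without mutant replicate 3 (0.0557). The call of psh needed mutant replicates 1 and 3 and control replicate 3 (up to 0.0651 without one of them), and that of cact needed every array but control replicate 2 (up to 0.193).

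Several other genes of infection and stress were bright in at least one genotype. The counts of these lists stand beside the 8.2% of all genes and the 12.1% of the brighter genes that were called. Of 6 measured antimicrobial peptide genes (14 listed) 1 rose, Drs, the antifungal peptide drosomycin, with 876, 889 and 1050 in the mutant and 170, 13.1 and 47.8 in the control, a log2 fold change of 4.30 (adjusted p = 0.0164 from limma, standard error 0.78). Control replicates 2 and 3 were under the 95th percentile of the receptor genes, so that the size of this fold rests on low signals. The log2 fold change of Drs was 2.65 with 100 added before the log. The median of the list was 2.20, and 5 genes were above 0. AttD and Def were higher without overlap of the genotypes (log2 fold changes 2.66 and 2.54, adjusted p = 0.0749 and 0.158 from limma). Their control signals were at most 16.2 and 11.9. In the mutant AttD had 51.6, 59.3 and 135, and Def was below the array median on every array. The median of this list therefore rests in part on low signals. CecB had a log2 fold change of -0.90. Of 7 measured heat shock and cold response genes (19 listed) 1 rose, the small heat shock protein gene Hsp27. It had 15178, 14928 and 16886 in the mutant and 4691, 3005 and 4757 in the control (log2 fold change 1.94, adjusted p = 0.00220 from limma). Hsp27 was the only gene of this list with a log2 fold change above 0, and the median of the list was -0.16. Hsp68 was lower without overlap of the genotypes (log2 fold change -1.11, adjusted p = 0.0724 from limma). Of 3 measured genes among the thioester proteins and vir-1 (5 listed) 1 fell, Tep4, a secreted thioester protein gene, by 1.21 on the log2 scale (adjusted p = 0.0399 from limma). Drs and Tep4 no longer passed when a mutant array or control replicate 3 was left out (adjusted p up to 0.144). With the replicate block Tep4 and cact did not pass (adjusted p = 0.0980 and 0.129), with each array centred Tep4 did not (0.111), and without the trend in limma none of the 7 genes called in these lists did (0.0549 to 0.257). Hsp27 also missed the threshold by the methods' t-test after adjustment (adjusted p = 0.0521). The hemocyte markers eater and Pxn rose as well, as given above, and their part in the rises of these immune lists was not tested.

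**Figure D3:**
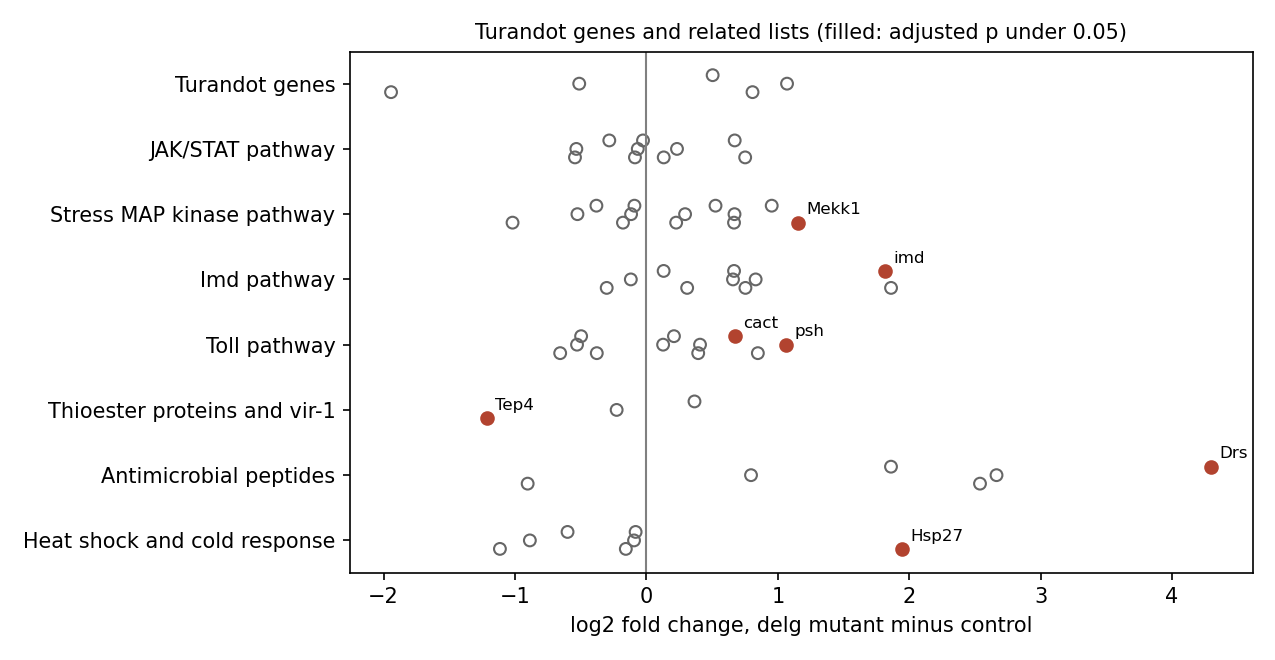
Log2 fold change, *delg* mutant minus control, of the 5 measured Turandot genes and of each measured gene of 7 related lists. Filled points passed an adjusted p under 0.05 from limma: none of the Turandot genes, and Mekk1, imd, cact, psh, Tep4, Drs and Hsp27 of the others.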

How the data were processed

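Per the labels and the study's methods, RNA of 6 fat body samples (3 *delg* mutant, 3 control) was extracted with columns, amplified in 2 cycles and hybridised to Affymetrix *Drosophila* arrays. The authors deposited intensities from GCOS 1.4, linear MAS5 signals; the mean with 2% trimmed at each end is equal on all arrays. Of 18952 probe sets, 183 Affymetrix controls were left out and 18769 tested, of which 13647 have 1 symbol, 402 several and 4720 none. Symbols were updated by gene number through RefSeq (Release 6 plus ISO1 MT), from which names and gene order alone were used. Where several probe sets carry 1 symbol, the brightest by mean log2 signal was used.

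Log2 signals with no added constant were fitted with limma 3.58.1 in R 4.3.3 (lmFit, eBayes with trend), and p-values were adjusted by Benjamini-Hochberg over the 18769 probe sets, with a threshold of 0.05. The number of arrays limits the precision. Members and lists were chosen with earlier results of these data known. The text names all members, up to 2 called genes per list and direction or the one with the smallest p, and the 5 genes most alike to the brightest member. The neighbours, single marker genes, upd1, upd2, dome, Stat92E, Rel, AttD, Def, CecB and Hsp68 were named after their values were seen. The procedure was tested on simulated data. The alternatives were centring, quantile normalization, adding 100, brighter probe sets alone, a replicate block, leaving out each array, no trend, array weights, the methods' t-test and averaging the probe sets of a gene.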

Additional observations from a re-analysis of the deposited data

How the results depend on the processing

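None of the 5 measured Turandot genes was called higher or lower under any of the 15 alternatives that gave them a value (lowest p 0.143, for TotB by the methods' t-test without adjustment). Keeping the brighter probe sets alone removed all 5 from the test, so that this setting gave no value for them. In 74 of 75 combinations of member and alternative the log2 fold change kept its direction. The exception was TotF, which ranged from -0.25 to 2.06 when 1 sample was left out, with -0.25 without control replicate 2. The median of the members ranged from -0.25 to 0.39 with 1 sample left out, again with -0.25 without control replicate 2, and the cause was not tested. Adding 100 before the log brought the value of TotB to -0.32 and that of TotE to 0.10.

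Over all probe sets tested, the residuals of same-numbered samples correlated at -0.04, -0.07 and -0.01. These values do not settle whether same-numbered samples were collected or processed together. With the replicate block, 0 Turandot genes were called higher and 0 lower, the adjusted p of TotB was 0.383, and over all genes 338 were higher and 215 lower, against 533 and 449 without it. The block also ended the calls of Tep4 (adjusted p = 0.0980), cact (0.129) and CG10481 (0.103).

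Over all genes, leaving out 1 sample gave 178 to 714 higher and 122 to 633 lower, limma without trend 106 and 57, array weights 852 and 857, and the methods' t-test 1227 and 1250 unadjusted and 137 and 107 after Benjamini-Hochberg adjustment. The counts of the 7 related lists moved by over 1.5 times or to or from 0 in 49 of 224 cases and reached at most 4. Without the trend in limma the calls of Mekk1 (adjusted p = 0.114), imd (0.0569), psh (0.126), cact (0.257), Tep4 (0.185), Drs (0.101), Hsp27 (0.0549), fusl (0.0922) and CG10481 (0.0510) were all lost. The methods' t-test after adjustment ended those of Mekk1 (0.0516), Tep4 (0.183), Drs (0.161), Hsp27 (0.0521), fusl (0.124) and CG10481 (0.0818). Other calls lost were those of Tep4 (0.111) and CG10481 (0.0583) with centring, of cact (0.0514) and CG10481 (0.0538) with quantile normalization and of cact (0.164) with the mean over probe sets. With low signals and 3 arrays per genotype, signal over background limits every Turandot value.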
